A study of Mus musculus with 4 samples.

Results

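The genes described here encode 10 chains of the fibrillar, basement membrane and type VI collagens: Col1a1, Col1a2, Col3a1, Col4a1, Col4a2, Col5a1, Col5a2, Col6a1, Col6a2 and Col6a3. Members were the rows whose gene symbol equaled one of these names, 10 of 55367 gene rows, and all 10 were found. RNA came from tumors that B16-F10 cells, a melanoma line of the mouse, form after injection under the skin, and the labels describe a sort for CD45.2, which marks leukocytes, together with CD8, which marks cytotoxic T cells. The titles gave 2 libraries labeled WT and 2 labeled KO. The series design names WT mice, Satb1 F/F; ThPOK-cre mice and Satb1 F/F; E8I-cre mice, but the titles did not say which driver stood behind the label KO. ThPOK-cre acts in T cells that commit to the CD4 lineage and E8I-cre in mature CD8 T cells. The study's methods describe young adult mice of mixed sexes and tumors grown in C57BL/6 mice. The age, sex and number of animals behind each library and the day of harvest were not given in the labels. Nothing said that libraries came from separate animals, so p-values measure the spread between these libraries only.

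Collagens are trimers of chains wound into a triple helix. Types I and III form fibrils in tissues such as skin, and type V sits inside those fibrils and sets their width. Type IV forms the sheet of basement membranes under epithelium, around vessels and around fat and muscle cells. Type VI forms beaded filaments close to cells. Fibroblasts are the best known source of types I, III, V and VI, while endothelial and epithelial cells also make type IV. T cells and other blood-derived cells are not known as major sources. Newly made chains are hydroxylated and folded in the endoplasmic reticulum, secreted, trimmed at their ends and crosslinked outside the cell.

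Several of these genes are neighbors. Col3a1 and Col5a2 face each other on chromosome 1 with 24.6 kb between their 3′ ends, and Col6a1 and Col6a2 lie on the same strand of chromosome 10, 85.2 kb apart. Col4a1 and Col4a2 start head to head on chromosome 8 of GRCm38.p6, on opposite strands, and their RefSeq transcripts overlap by 22 bases at their starts (start of Col4a2 at 11312805 on the plus strand, start of Col4a1 at 11312826 on the minus strand). The overlap is shown because the pair starts from the same bases yet had unequal counts, and capitals mark the letters GGGCGG.
Col4a1 and Col4a2 overlap, plus strand: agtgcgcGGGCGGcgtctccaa
The 250 bases before the RefSeq start sites of Col3a1 (chr1:45311288-45311537, plus strand) and Col5a1 (chr2:27886175-27886424, plus strand) are shown because these were the members with the largest ratios of KO 1 to KO 2. Capitals mark TATAAA in Col3a1 and GGGCGG, on either strand, in Col5a1.
Col3a1: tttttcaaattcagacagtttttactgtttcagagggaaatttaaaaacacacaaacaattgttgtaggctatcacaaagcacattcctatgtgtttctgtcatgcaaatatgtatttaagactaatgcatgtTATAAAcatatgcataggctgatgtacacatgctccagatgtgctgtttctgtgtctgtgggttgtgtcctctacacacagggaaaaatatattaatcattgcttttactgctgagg
Col5a1: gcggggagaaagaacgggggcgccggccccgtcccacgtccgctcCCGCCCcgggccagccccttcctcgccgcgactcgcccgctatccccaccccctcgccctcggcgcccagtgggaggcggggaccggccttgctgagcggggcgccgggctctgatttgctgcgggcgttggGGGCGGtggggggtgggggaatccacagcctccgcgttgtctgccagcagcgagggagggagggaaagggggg
The windows differ in make-up, with 35.2% G and C before Col3a1 and 76.4% before Col5a1, where the median of the 32851 windows used was 52.4%. A RefSeq window was found for 8 of the 10 members (Col1a1 and Col5a2 had none). Searched on both strands, TATAAA was present in 1 of the 8 members and in 12.4% of all windows, GGGCGG in 4 of 8 and in 32.7%, and CCAAT in 3 of 8 and in 33.9%.

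Gene counts per library ran from 4017875 to 5382915. Satb1, the gene the knockout label refers to, had 131 and 55 counts in KO 1 and KO 2 but 7 and 5 in WT 1 and WT 2 (edgeR adjusted p = 0.115). The counts went against the label, so each direction given here refers to libraries by their label alone. The labels also split the libraries as genes of the sex chromosomes do: for Xist, counts were 435 and 216 in the WT libraries versus 0 and 3 in the KO libraries, and for Ddx3y, on chromosome Y, 0 and 0 versus 188 and 81. Sex and label cannot be told apart. The sort label also did not match the transcripts. The summed level of 8 T cell markers was 63.7 and 89.9 normalized CPM (counts per unit of library size after scaling) in WT 1 and WT 2 and 1266 and 926 in KO 1 and KO 2, while 8 macrophage markers summed to 21934 and 23166 against 4673 and 12900, respectively.

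The 10 collagens together were at the edge of detection in the libraries labeled WT and plainly present in those labeled KO. WT 1 held 48 of their counts and WT 2 held 17, while KO 1 held 6816 and KO 2 held 1132. As a share of gene counts this was 0.00119% (exact Clopper-Pearson 95% interval 0.000881% to 0.00158%) in WT 1 and 0.000399% (0.000232% to 0.000639%) in WT 2, then 0.152% (0.149% to 0.156%) in KO 1 and 0.0210% (0.0198% to 0.0223%) in KO 2. The summed level was 9.27 ± 7.19 normalized CPM (SD, n = 2) in WT and 743 ± 773 (SD, n = 2) in KO, so the mean differed 80.2-fold while the SD among the KO libraries was as large as their mean. All intervals treat each read as a separate molecule, and they do not cover the spread between libraries. Reads that carry no molecular identifiers can be copies of 1 molecule, so true counting error can exceed these intervals. In bulk libraries such as these, fewer cells of a type and less RNA per cell cannot be told apart.

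**Figure D1:**
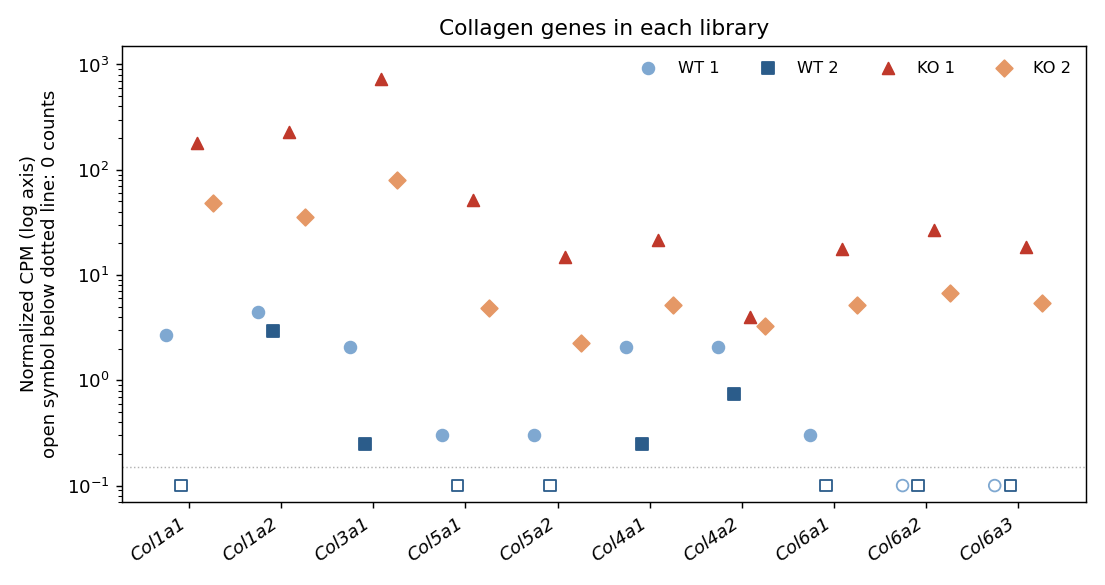
Normalized CPM (log axis) of each collagen gene in each of the 4 libraries, 1 point per library, with open symbols for 0 counts. KO 1 lies above KO 2 for all 10 genes, from 726 against 79.4 for Col3a1 to 3.98 against 3.30 for Col4a2, and both lie above both WT libraries.

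The fibrillar chains of types I and III held most of these reads. Col3a1 (ENSMUSG00000026043.18, chromosome 1, 45311538 to 45349706, plus strand of GRCm38/mm10, protein coding), the chain of type III collagen, was read 7 times in WT 1, once in WT 2, 3836 times in KO 1 and 457 times in KO 2. Col1a1 (ENSMUSG00000001506.10, chromosome 11, 94936224 to 94953042, plus strand), which supplies the majority chain of type I collagen, had 9, 0, 945 and 279 counts in the same order. Col1a2 (ENSMUSG00000029661.16, chromosome 6, 4504814 to 4541544, plus strand), the partner chain of Col1a1, had 15, 12, 1214 and 206. For all 3 genes both KO libraries were far above both WT libraries, and KO 1 was above KO 2. Col1a2 differed from the others in WT, where it was the sole member to reach the minimum for low counts in both libraries. The other 9 members passed that filter through the KO libraries alone and so had to be higher there.

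In the test of KO against WT across 11837 genes, Col3a1, Col1a1 and Col1a2 were the 3 of 10 members past the threshold of an adjusted p under 0.05, all higher in the libraries labeled KO, where 0.549% of all genes tested were past it in that direction. Col3a1 was at 1.17 ± 1.31 normalized CPM (SD, n = 2) in WT and 403 ± 457 (SD, n = 2) in KO, and its log2 fold change was 8.47 (SE 1.30, edgeR adjusted p = 0.0295). Col1a1 was at 1.35 ± 1.90 and 114 ± 92.2 (SD, n = 2 each), and its log2 fold change was 6.46 (SE 1.11, edgeR adjusted p = 0.0445). For Col1a2 the levels were 3.72 ± 1.08 and 133 ± 137 (SD, n = 2 each), and the log2 fold change was 5.16 (SE 0.90, edgeR adjusted p = 0.0452). The calls of the type I chains lay close to the threshold: with upper-quartile scaling the edgeR adjusted p was 0.0540 for Col1a1 and 0.0555 for Col1a2, and in DESeq2 the adjusted p was 0.122 for Col1a1, 1.06e-08 for Col1a2 and 0.000298 for Col3a1. Single libraries moved the sizes: without KO 1 the log2 fold changes of Col3a1, Col1a1 and Col1a2 were 6.12, 5.23 and 3.26, without WT 1 they were 10.45, 12.12 and 5.39, without WT 2 they were 7.49, 5.31 and 4.80 and without KO 2 they were 9.30, 7.10 and 5.92, with all 3 past the threshold in each of these fits. The value of Col1a1 without WT 1 depends on the prior count, since WT 2 had 0 reads of it.

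In all 10 members both KO libraries were above both WT libraries, as in 25.3% of the genes tested. The median fitted log2 fold change was 6.29 over the members, or 5.43 with genes at 0 counts in WT set to their lower bound, and 0.051 over all genes tested. Members entered the test by a filter that mostly let them in through KO, so these values are a description of the list.

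Type V collagen showed the same order of libraries at a lower level. Col5a1 (ENSMUSG00000026837.15, chromosome 2, 27886425 to 28039514, plus strand), the main chain of type V, was read once in WT 1, not at all in WT 2, 274 times in KO 1 and 28 times in KO 2. Its partner Col5a2 (ENSMUSG00000026042.16, chromosome 1, 45374321 to 45503282, minus strand) had 1, 0, 79 and 13. A single WT read stood against each gene, so their folds are poorly bounded. The ratio of pooled reads, KO to WT, was 202 for Col5a1 (exact 95% interval 36.1 to 8023) and 61.7 for Col5a2 (10.8 to 2462). Neither gene was past the threshold, with edgeR adjusted p-values of 0.0674 and 0.148, and log2 fold changes of 7.44 and 5.71. In DESeq2 both were past it, with adjusted p-values of 0.000736 and 0.0457. Single libraries decided the edgeR call of Col5a1, which was past the threshold without WT 1 (log2 fold change 10.11), WT 2 (6.37) or KO 2 (8.26) and not without KO 1 (4.87). Col5a2 was past it without KO 2 (6.46), not without WT 1 (8.39) or WT 2 (4.65), and was not tested without KO 1. Without WT 1 both genes were at 0 in WT, so those folds depend on the prior count, and with all libraries a prior count raised to 2 gave log2 fold changes of 5.65 for Col5a1 and 3.97 for Col5a2. Exons of Col5a1 share 1.17% of their bases with 2810430I11Rik and 1.33% with Gm13372, both on the other strand, and the counting was not stated to use strand. These neighbors had 11 counts each in KO 1, small beside the 274 of Col5a1.

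Type IV collagen, the basement membrane type, had the smallest fitted differences among the members. Col4a1 (ENSMUSG00000031502.11, chromosome 8, 11198423 to 11312826, minus strand) had 7 counts and 1 count in WT, then 113 and 30 in KO. Col4a2 (ENSMUSG00000031503.13, chromosome 8, 11312805 to 11449287, plus strand), whose chain joins that of Col4a1 in the same trimer, had 7, 3, 21 and 19. The KO libraries were therefore close to each other for Col4a2 and apart for Col4a1. In normalized CPM Col4a1 was at 1.17 ± 1.31 (SD, n = 2) in WT and 13.3 ± 11.4 (SD, n = 2) in KO, and its log2 fold change was 3.53 (SE 1.07, edgeR adjusted p = 0.210). Col4a2 was at 1.42 ± 0.958 and 3.64 ± 0.478 (SD, n = 2 each), and its log2 fold change was 1.37 (SE 0.95, edgeR adjusted p = 0.546). In edgeR Col4a1 passed without WT 1 (log2 fold change 5.54) or KO 2 (4.19) and not without WT 2 (2.58) or KO 1 (2.17), while Col4a2 passed in none of these fits and ranged from 0.74 to 2.20.

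The ratio of the type IV chains was not the same in the libraries, although the genes start from overlapping bases. Per kilobase of transcript, Col4a1 stood at 5.25 times Col4a2 in KO 1 (exact 95% interval 3.27 to 8.80), at 1.54 times in KO 2 (0.839 to 2.89) and at 0.975 times in WT 1 (0.292 to 3.26). The intervals of KO 1 and KO 2 did not overlap, whereas WT 1 and WT 2 had too few reads to place the ratio, the latter with 1 and 3. These intervals compare single libraries and say nothing of the spread between animals.

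Type VI collagen was at 0 or 1 count per gene in the WT libraries. Col6a1 (ENSMUSG00000001119.7, chromosome 10, 76708792 to 76726168, minus strand) had 1, 0, 94 and 30 counts. Col6a2 (ENSMUSG00000020241.13, chromosome 10, 76595762 to 76623630, minus strand) had 0, 0, 142 and 39. Col6a3 (ENSMUSG00000048126.16, chromosome 1, 90765923 to 90843971, minus strand), whose chain is the longest of the 3 and completes the common type VI trimer, had 0, 0, 98 and 31. All 3 genes thus moved through the libraries in the same order, with KO 1 about as far above KO 2 for each. Against a floor of 3 counts in each WT library, Col6a2 was at least 20.6-fold and Col6a3 at least 14.6-fold higher in KO. KO 1 set the size of these limits: they were 32.9-fold and 22.7-fold from KO 1 alone and 8.28-fold and 6.58-fold from KO 2 alone. For Col6a1 the ratio of pooled reads was 83.1 (exact 95% interval 14.6 to 3309.5). None of them was past the threshold, with edgeR adjusted p-values of 0.0779 for Col6a1, 0.0518 for Col6a2 and 0.0600 for Col6a3. In DESeq2 the adjusted p-values of the same genes were 0.0139, 0.000193 and 0.000997. All 3 were past the edgeR threshold without WT 1 or without KO 2, with log2 fold changes from 6.71 to 9.81, and none was without KO 1, with 4.97 to 7.90. Without WT 2, Col6a2 and Col6a3 passed and Col6a1 did not (5.08). Folds against 0 counts rest on the prior count. Raising it to 2, with all libraries, took the log2 fold changes from 6.13 to 4.38 for Col6a1, from 9.28 to 5.31 for Col6a2 and from 8.79 to 4.84 for Col6a3. Chain ratios per kilobase were close in KO 1 and KO 2: Col6a1 to Col6a2 stood at 0.751 (exact 95% interval 0.573 to 0.982) and 0.873 (0.524 to 1.44), and Col6a3 to Col6a1 at 0.423 (0.315 to 0.567) and 0.419 (0.245 to 0.717). The order of Col6a1 and Col6a2 depended on the length used, since with all annotated exons joined their ratio was 1.26 and 1.46.

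**Figure D2:**
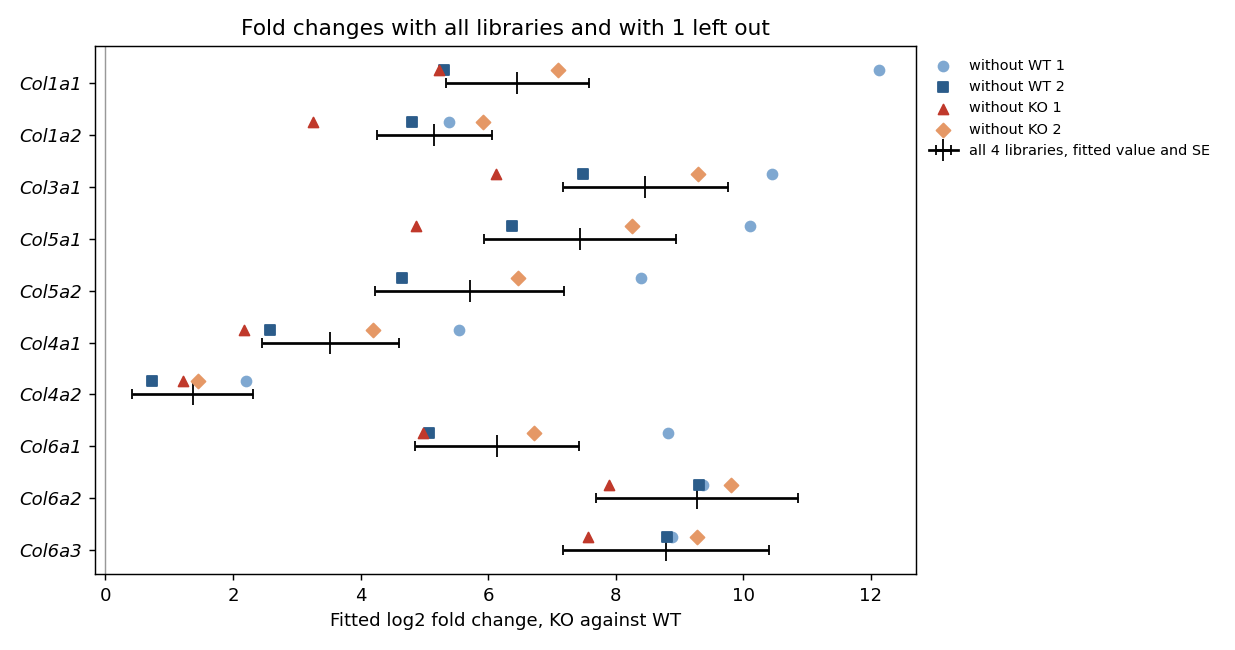
Fitted log2 fold change of KO against WT for each collagen gene (horizontal axis) with its SE from all 4 libraries, and the value with each library left out. Values with all libraries run from 1.37 for Col4a2 to 9.28 for Col6a2, where the latter depends on the prior count because both WT libraries were at 0; Col5a2 has no point without KO 1 since it then failed the filter on low counts.

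Levels of different genes were compared per kilobase of the longest annotated coding transcript, within a library. In KO 1 the order from the top was Col3a1 (689 counts per kilobase), Col1a2 (227), Col1a1 (159), Col5a1 (32.6), Col6a2 (30.5), Col6a1 (22.9), Col4a1 (17.1), Col5a2 (11.9), Col6a3 (9.70) and Col4a2 (3.26). In KO 2 it was Col3a1 (82.1), Col1a1 (47.0), Col1a2 (38.5), Col6a2 (8.38), Col6a1 (7.32), Col4a1 (4.54), Col5a1 (3.33), Col6a3 (3.07), Col4a2 (2.95) and Col5a2 (1.96). Both libraries put type III first and both type I chains next, and in KO 2 the remaining 7 genes lay between 1.96 and 8.38. Which type I chain came second was not settled: Col1a1 stood at 0.702 times Col1a2 in KO 1 (exact 95% interval 0.644 to 0.765) and at 1.22 times in KO 2 (1.02 to 1.47), and with the length of all annotated exons joined in place of the longest transcript the ratios were 1.47 and 2.56. Col5a1 was at rank 4 in KO 1 and rank 7 in KO 2. In WT 1 no member exceeded the 2.80 counts per kilobase of Col1a2.

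The mixture of chains differed between the KO libraries as well. Col3a1 made up 56.3% of collagen reads in KO 1 (exact 95% interval 55.1% to 57.5%) and 40.4% in KO 2 (37.5% to 43.3%). Col1a1 made up 13.9% (13.1% to 14.7%) and 24.6% (22.2% to 27.3%), the opposite direction, while Col1a2 was at 17.8% (16.9% to 18.7%) and 18.2% (16.0% to 20.6%). Type VI chains together took 4.90% (4.40% to 5.44%) of collagen reads in KO 1 and 8.83% (7.25% to 10.6%) in KO 2, and type IV chains 1.97% (1.65% to 2.32%) and 4.33% (3.22% to 5.68%). In WT 1 the 48 collagen reads were 31.3% Col1a2 (18.7% to 46.3%) and 29.2% type IV (17.0% to 44.1%). Of the 17 in WT 2 those of Col1a2 were 70.6% (44.0% to 89.7%). Col3a1 thus held the largest share of a single gene in both KO libraries and more than all others combined in KO 1 alone, while Col1a2 held the largest share in both WT libraries, with wide intervals there.

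**Figure D3:**
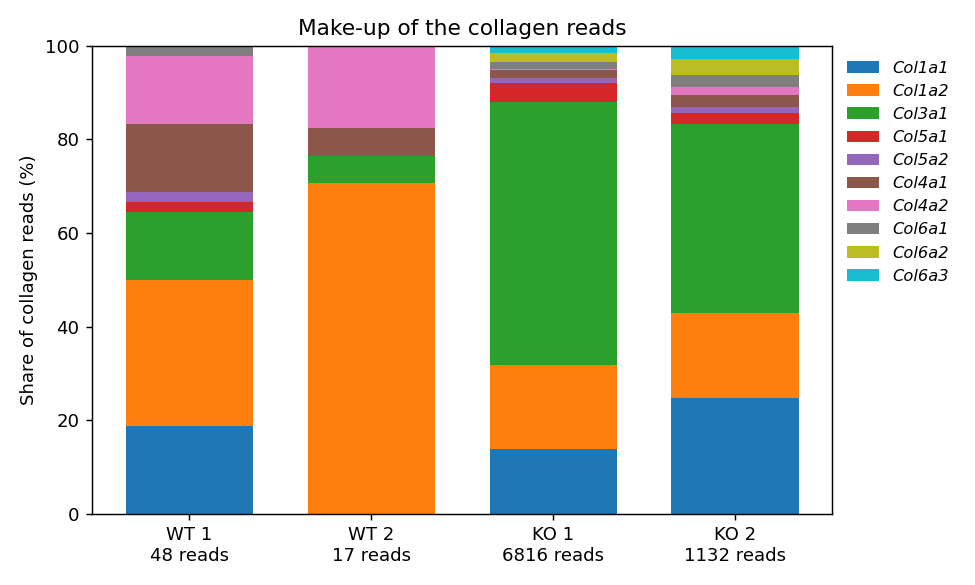
Share of each gene among the collagen reads of a library (vertical axis, percent), with the number of collagen reads under each bar. Col3a1 is the largest part in KO 1 (56.3%) and KO 2 (40.4%), and Col1a2 in WT 1 (31.3%) and WT 2 (70.6%), where the bars rest on 48 and 17 reads.

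KO 1 carried most of the collagen signal. The ratio of normalized CPM in KO 1 to that in KO 2 was 6.56 for the members together (exact 95% interval 6.16 to 6.997), where the median gene tested had a ratio of 1.03. By gene, the ratio was 10.7 (7.22 to 16.4) for Col5a1, 9.15 (8.30 to 10.1) for Col3a1, 6.63 (3.66 to 13.0) for Col5a2 and 6.43 (5.54 to 7.48) for Col1a2. Lower values were those of Col4a1 at 4.11 (2.73 to 6.36), Col6a2 at 3.97 (2.77 to 5.81), Col1a1 at 3.69 (3.23 to 4.24), Col6a3 at 3.45 (2.28 to 5.34) and Col6a1 at 3.42 (2.24 to 5.34). The interval of Col5a2 overlapped each of these, so the ratios did not fall into separate groups. For Col4a2 the interval held 1, at 1.21 (0.617 to 2.37). The type I partners Col1a1 and Col1a2, chains of the same trimer, had intervals that did not meet. The factor between KO 1 and KO 2 thus differed between them by more than counting error, if each read is a separate molecule.

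**Figure D4:**
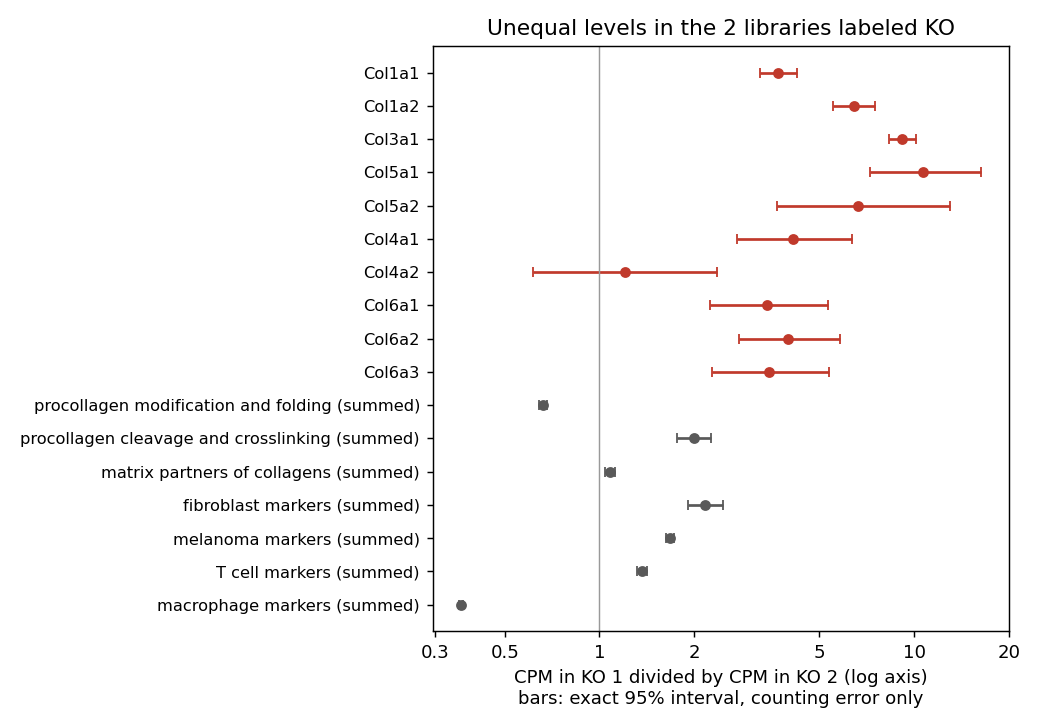
Normalized CPM in KO 1 divided by that in KO 2 (log axis) with exact 95% intervals for counting error, for each collagen gene and for the summed level of other gene lists. Collagens run from 1.21 (Col4a2) to 10.7 (Col5a1), while summed T cell markers are at 1.37, melanoma markers at 1.68, fibroblast markers at 2.17, a sum in which Pdpn alone took 253 of 371 counts in KO 2, and macrophage markers at 0.362.

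Genes that make, trim and hold collagen were then read from lists. Over all genes tested, 9.44% were higher and 4.23% lower in KO at an unadjusted edgeR p under 0.05, and 2.52% and 0.515% were called higher and lower in DESeq2. Of 19 genes for procollagen modification and folding, 15 were tested and 0 passed in edgeR, with 4 higher and 1 lower in KO at an unadjusted p under 0.05 and 2 higher in DESeq2. Their median log2 fold change was 0.16 against 0.051 over all genes, and their summed level was 2045 and 1907 normalized CPM in WT and 1487 and 2244 in KO, with the groups overlapping. The most abundant genes of this list serve many secreted proteins: P4hb, a disulfide isomerase that is also part of prolyl hydroxylase, had 1994, 2396, 2573 and 6381 counts over the libraries, WT first, and Ppib, a prolyl isomerase, was lower in both KO libraries, at 734 and 620 normalized CPM in WT and 453 and 407 in KO. The lysyl hydroxylase Plod1 was at 155 and 178 against 47.7 and 188, and Plod3, of the same family, at 233 and 204 against 89.9 and 131. Of the 15 genes tested, 6 had both KO libraries above both WT libraries and 4 had both below. Among all 11837 genes tested, 2994 (25.3%) had both above and 2678 had both below. A pair among those 6 was picked after their values were seen. Serpinh1, a chaperone dedicated to collagen, had 20, 26, 472 and 168 counts (log2 fold change 3.25, SE 0.63, edgeR adjusted p = 0.0613), and Plod2, a lysyl hydroxylase of collagen, had 4, 1, 149 and 63 (log2 fold change 4.77, SE 0.93, edgeR adjusted p = 0.0600).

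Of 13 genes for cleavage and crosslinking of procollagen, 4 were tested and 0 passed in edgeR, with 2 higher at an unadjusted p under 0.05 and 1 higher in DESeq2. Bmp1, which removes the C-terminal propeptide, had 0, 0, 96 and 24 counts and was at least 13.7-fold higher in KO, or 5.09-fold from KO 2 alone and 22.2-fold from KO 1 alone (edgeR adjusted p = 0.0753). Pcolce, which enhances that cleavage, had 18, 10, 168 and 57 counts (log2 fold change 2.41 with an SE of 0.76, edgeR adjusted p = 0.223). The crosslinking enzyme gene Loxl1 had 1, 0, 77 and 9 counts and was not tested, while Loxl3, of the same family, had 188, 241, 195 and 269. The enzymes thus did not share 1 pattern: Bmp1 and Loxl1 were near 0 in WT as the collagens were, and Loxl3 was present in every library.

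Matrix partners of collagens differed among themselves. Of 14 genes 9 were tested and 0 passed in edgeR, with 6 higher at an unadjusted p under 0.05 and 3 higher in DESeq2, and the median log2 fold change was 4.31, or 3.92 with bounds. Of the 9, 5 reached the level of the low-count filter in no WT library and so had to be higher in KO, which bears on that median as it does for the collagens. The same was true of 2 of the 15 modification genes and 2 of the 4 cleavage genes tested. Dcn, a small proteoglycan that binds type I fibrils, had 0, 0, 538 and 27 counts and was at least 65.1-fold higher in KO, or 5.73-fold from KO 2 alone and 124-fold from KO 1 alone (edgeR adjusted p = 0.0822), with a ratio of KO 1 to KO 2 of 21.7. Sparc, a collagen-binding matrix protein, had 30, 24, 1069 and 257 counts (log2 fold change 4.05 with an SE of 0.75, edgeR adjusted p = 0.0531). Fn1, the gene of fibronectin, was abundant throughout with 882, 1793, 2818 and 4741 counts (log2 fold change 0.94, edgeR adjusted p = 0.447), and Lamc1, a laminin chain of basement membranes, had 76, 53, 144 and 211. Fn1 and Lamc1 had more normalized reads in KO 2 than in KO 1, unlike the collagens.

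The most abundant receptors and breakdown enzymes of collagen were present in every library. Of 11 receptor genes 7 were tested and 0 passed in edgeR, with 4 higher at an unadjusted p under 0.05 and 0 called in DESeq2. Among the 7, 3 reached the level of the low-count filter in no WT library and so had to be higher in KO. Itgb1, the beta chain shared by collagen-binding integrins, had 116 and 191 normalized CPM in WT and 357 and 410 in KO, Mrc1, a macrophage receptor that takes up collagen, had 128 and 231 against 193 and 218, and Lair1, an inhibitory collagen receptor of leukocytes, had 192 and 212 against 67.2 and 152. Ddr1, a collagen-activated tyrosine kinase, had 2 and 9 counts against 46 and 39. Of 10 breakdown genes 9 were tested and 0 passed in edgeR, with 2 higher and 2 lower at an unadjusted p under 0.05 and 1 higher in DESeq2. Here 2 of the 9 reached that filter level in no WT library and likewise had to be higher in KO. Mmp14, a membrane collagenase, had 197 and 194 normalized CPM in WT and 108 and 69.3 in KO (log2 fold change -1.14 with an SE of 0.44, edgeR adjusted p = 0.3004). The values of Timp2, an inhibitor of metalloproteinases, were 372 and 341 against 97.5 and 327, those of Ctsk, a collagen-degrading cathepsin, 113 and 17.7 against 14.0 and 14.9, and those of the collagenase Mmp13 53.5 and 12.3 against 3.41 and 76.2.

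Markers of other cell types were read beside the collagens, and their part in the collagen result was not tested. All 11 fibroblast markers had counts in at least 1 library. Of these, Pdgfra, Pdgfrb, Cdh11, Twist1, Clec3b, Dpt, Fbln2 and Twist2 were at 0 in both WT libraries, and 8 of 11 were at 0 in each of them, against 1 of 11 in KO 1 and 3 of 11 in KO 2. The summed level of the list was 88.8 and 21.2 normalized CPM in WT and 140 and 64.4 in KO, with the groups overlapping. Most of the WT reads fell on Pdpn, a mucin-like gene that macrophages can also express, with 287, 71, 40 and 253 counts. The ratio of KO 1 to KO 2 was 2.17 for the full list. As a description only, since Pdpn was left out after its values were seen, the other 10 markers summed to 2.99 and 3.70 normalized CPM in WT and 132 and 20.5 in KO, a ratio of KO 1 to KO 2 of 6.46. Fbln1, Fbln2 and Mfap5, matrix proteins of fibroblasts, had 7, 13, 176 and 43, then 0, 0, 110 and 39, then 3, 2, 189 and 18 counts. Of the 4 genes tested 0 passed in edgeR, with 3 higher at an unadjusted p under 0.05 and 3 higher in DESeq2. Of these 4, 2 reached the level of the low-count filter in no WT library and so had to be higher in KO.

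Pericyte, smooth muscle and endothelial markers did not follow the collagens. The 8 pericyte and smooth muscle markers summed to 16.4 and 7.15 normalized CPM in WT and 10.98 and 11.98 in KO, with Acta2, an actin of contractile cells, at 18, 9, 7 and 28 counts. The 10 endothelial markers summed to 57.1 and 43.4 against 28.6 and 42.2, with both KO sums below both WT sums. The most abundant of them were present in every library: Pecam1, an adhesion protein that leukocytes also carry, had 51, 63, 70 and 124 counts, Kdr, a growth factor receptor, had 82, 49, 25 and 40, Vwf, a clotting factor of endothelium and platelets, had 33, 31, 13 and 44, and Egfl7, a secreted endothelial protein, had 24, 14, 36 and 18. Of the other endothelial markers, named here after their values were seen, Cldn5 was at 0 in every library and Cdh5 had 1, 6, 1 and 1 counts. Of the genes tested on these lists, 2 and 5, 0 passed in edgeR and 0 in DESeq2, with 0 and 1 lower in KO at an unadjusted p under 0.05. The 7 melanoma markers summed to 1965 and 1171 normalized CPM in KO and 261 and 267 in WT. Of these 1 passed in edgeR, with 6 higher at an unadjusted p under 0.05 and 5 higher in DESeq2. The gene that passed was Tyrp1, a pigment enzyme (log2 fold change 3.21 with an SE of 0.47, edgeR adjusted p = 0.0292). Mitf, the pigment cell transcription factor, overlapped between the groups, at 34.99 and 24.9 normalized CPM in WT and 88.4 and 19.97 in KO (edgeR adjusted p = 0.587). Of the 8 T cell markers 7 were past the threshold and higher in KO, among them Cd8a (4.34 with an SE of 0.48, edgeR adjusted p = 0.0172). The 8 macrophage markers included C1qb, a complement chain, at 7527 and 9202 normalized CPM in WT and 1776 and 4693 in KO, and of these markers 0 passed in edgeR, with 3 lower at an unadjusted p under 0.05 and 1 lower in DESeq2.

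**Figure D5:**
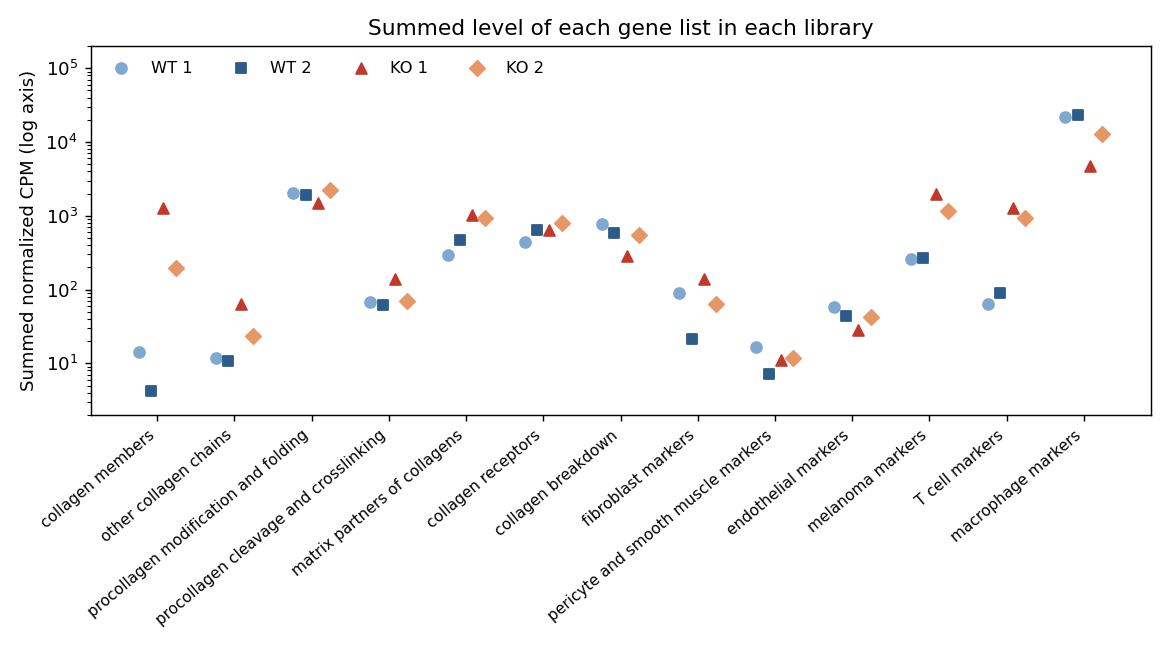
Summed normalized CPM (log axis) of each gene list in each library, 1 point per library. The collagen members go from 14.4 and 4.19 in WT to 1290.3 and 197 in KO, while procollagen modification, breakdown, pericyte and endothelial lists differ by much less and do not follow the order of the collagens.

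The genes with the profile most like the summed collagens were sought over the 4 libraries, as the smallest distance between log2(CPM + 0.5) values centered on their mean, among 10049 genes with a mean of at least 5 normalized CPM. The closest were Xcl1, Serping1, Itm2a, Nrgn and Ddx3y, at distances from 1.32 to 1.59 where the median gene was at 6.41. Xcl1, a chemokine gene of lymphocytes, had 2, 2, 1400 and 245 counts over the libraries, WT first. Serping1, an inhibitor of complement C1 made by many stromal cells, had 0, 0, 485 and 40. With 4 libraries a profile is shared by genes of unlike origin, as the presence of the Y-linked Ddx3y among the 5 shows. For Col4a1 plus Col4a2, the closest were Rad50, Rabgap1l, Atp6v0e2, Gpx8 and Sdcbp2, at distances from 0.155 to 0.598, with 12, 4, 118 and 44 counts for Rad50, a DNA repair gene.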

How the data were processed

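RNA was measured in 4 libraries, 2 labeled WT and 2 labeled KO by their titles. The submitters' processing notes name HISAT2 2.1.0, HTSeq 0.11.0 and the build mm10. The values deposited by the authors are raw read counts per gene symbol, not normalized. The annotation and the strand setting were not given in the sources used here. Reads on genes made up 20.5% to 28.8% of all reads in a table, and the HTSeq summary lines, which belong to no gene, entered neither totals nor tests.

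Counts were analyzed with edgeR 4.0.16 in R 4.3.3: filterByExpr (minimum count 10, total 15), TMM scaling, the quasi-likelihood F test of KO against WT with group as its only term, two-sided, and Benjamini-Hochberg adjustment over 11837 genes with a threshold of 0.05. The prior count was 0.125. Each SE is the size of the log2 fold change over the root of F. Normalized CPM used full gene totals times the TMM factors. Intervals were exact (Clopper-Pearson, or conditional binomial for ratios) at 95%, computed with SciPy 1.17.1. Positions and lengths came from GENCODE M21 (GRCm38), promoter windows from RefSeq (GRCm38.p6). The fit was tested on simulated data.

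The members and lists were chosen with earlier results of these data known. Named genes were all members, from each other list the 4 with the highest mean level and up to 6 past the threshold, and the 5 most alike in profile. Marker lists are mostly given by their sums, with few of the genes so named. DESeq2 counts for a list cover its genes tested in edgeR. Alternatives were other scaling, filters, DESeq2 1.42.0, a replicate block, a prior count of 2, thinning, scaling without collagen, matrix and mitochondrial genes, and each library left out. A crossed block, fold limits from each KO library alone and a fibroblast sum without Pdpn were added after seeing the data.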

Additional observations from a re-analysis of the deposited data

How the results depend on the processing

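No member changed direction under any alternative that tested it, but 9 of 10 passed the main filter through the KO libraries alone, which fixed their direction and makes this no sign of stability. Of the members' values, 100 of 142 values kept their side of the threshold, with 3 calls lost and 39 gained. Main counts were 65 genes higher and 3 lower in KO and 3 members called. Without scaling factors 133 genes and 6 members were higher. Without a filter there were 505 higher, 78 lower and 9 members, in DESeq2 311, 63 and 7, and with a minimum of 10 CPM in 2 libraries 105 were higher and 3 members were left to test. With upper-quartile factors 1 member passed. With each library left out in turn, 99 to 725 genes were higher, 7 to 524 lower, and 3 to 9 members passed; the lowest number of members was without KO 1 and the highest without KO 2. A lone library left in a group is assumed to vary as the other group does. With the replicate number as a block (replicate block) 201 were higher and 14 lower, with 8 members; the numbers share no stated origin, and deviations of libraries with the same number correlated at -0.179 over 11837 genes. With crossed numbers 535 were higher, 112 lower, and 9 members passed. The cause of these shifts was not tested.

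Depth limits the WT values: 3 counts correspond to 0.897 and 0.739 normalized CPM in WT 1 and WT 2, and 5 members had at most 1 count in the WT libraries together, so the size of their change is bounded from below and not measured.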

Other observations

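Of 34 other collagen chains, 23 had at least 1 count and 4 were tested. Among those 4, 0 passed in edgeR, with 2 higher in KO at an unadjusted p under 0.05 and 1 higher in DESeq2. The filter on low counts was reached in no WT library by 3 of the 4, which therefore had to be higher in KO. Col14a1, a chain on the surface of type I fibrils, had 1, 1, 161 and 33 counts over the libraries, WT first (log2 fold change 5.93 with an SE of 1.15, edgeR adjusted p = 0.0600). Col5a3, a further type V chain, had 2, 0, 43 and 20 counts, and Col18a1, a basement membrane chain, had 1, 8, 13 and 22. Col11a2, a cartilage fibril chain, went the other way with 25, 22, 6 and 15 counts (log2 fold change -1.76 with an SE of 0.84, edgeR adjusted p = 0.392).

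Some chains were read in 1 library and not in the others; the examples were picked after their values were seen. Col6a5 had 19 counts, Col8a1 14 and Col20a1 9 in KO 1 and none in any other library, whereas Col4a3, a chain of specialized basement membranes, had 11 counts in KO 2 and Col17a1, a chain of epithelial anchoring, 3 in WT 1, with none elsewhere. Of the partners of Col4a3, Col4a5 had 3 counts in KO 1 and 10 in KO 2, and Col4a4 had 4 and 2. Such counts are too few to place an order of the KO libraries.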
